A study of Arabidopsis thaliana with 6 samples.

Results

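Transcripts of the plastid and mitochondrial genomes were examined in an RNA sequencing comparison of roots of Arabidopsis thaliana, wild type against the hb13 mutant. The members are the entries of the authors' deposited table whose identifier starts with ATCG, the prefix of the plastid genome, or ATMG, that of the mitochondrial genome. They are 8 of 708 entries, 6 plastid and 2 mitochondrial, and they name 9 loci because 1 plastid entry joins a pair of genes. The other 700 entries are nuclear.

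The wild type was the Col-0 ecotype, the standard laboratory accession, and the mutant was hb13 in the same ecotype, with 3 libraries of each genotype. HB13 is a homeodomain-leucine zipper protein that regulates transcription, and the labels do not describe the mutant allele. Seedlings grew on standard medium for 5 days, and the tissue is labelled as whole root, while the protocol places the cut at about 0.5 cm from the root tip. No treatment is named, and how many seedlings went into a library is not given in the sources used here. Polyadenylated RNA was isolated and strand-preserving libraries were made in all 6 cases. The table gives 1 expression value per genotype, the log2 of the mutant over the wild-type value, and a q-value, which is a p-value adjusted for the number of genes tested. It holds entries with a q-value under 0.05. No spread between libraries can be given, and the read depth is unknown. None of 12 root marker genes was listed, and HB13 was not listed either, so neither the tissue label nor the genotype label could be checked.

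Plastids and mitochondria keep small genomes of their own, which code for part of their ribosomes, for plastid RNA polymerase subunits and for core subunits of the membrane complexes of photosynthesis and respiration. Most other organelle proteins are coded in the nucleus and imported. Plastid genes are transcribed by a bacterial-type polymerase, with nuclear-coded sigma factors that choose its promoters, and by a phage-type polymerase coded in the nucleus. Many plastid genes are read as long joint transcripts that are cut and trimmed afterwards. Root plastids are mostly not green, yet they transcribe this genome. In plant organelles a poly(A) tail is short-lived and marks RNA for decay, in contrast to the stable tail of nuclear messenger RNA. The values below therefore stand for the organelle RNA that poly(A) selection recovered, and the part of that step in the differences was not tested. In RNA from root tissue, a change in the number of cells or organelles and a change in RNA per cell cannot be told apart.

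The products are named by locus as in the Arabidopsis genome nomenclature, since the annotation used here pairs few of these loci with a product. The positions below belong to the RefSeq genes of the same names in assembly TAIR10.1. Of 78 plastid protein-coding gene names in this assembly, 7 (8.97%) were in a listed entry, and all 7 lie on the minus strand, which carries 49 (62.8%) of the 78. The share listed among all genes tested is not known. Of nuclear genes annotated in the chloroplast 2.31% were listed, and of those annotated in the mitochondrion 2.17%. Whether these shares differ from the plastid share was not tested. The plastid genes that were listed fall into 3 places. The genes rpl16, rpl14 and rpoA lie in the ribosomal protein cluster, atpB and atpE lie side by side, and ndhK stands alone. The stretches that join neighbouring listed genes are shown because they place the entries relative to each other on the genome. They are read in the direction of transcription from the minus strand of the plastid genome of TAIR10.1. In the first, at plastid:52632-52691, capitals mark the 4 bases shared by the end of atpB and the start of atpE. In the second, at plastid:81062-81191, capitals mark the stop codon of rpl16 and the start codon of rpl14.
atpB-atpE: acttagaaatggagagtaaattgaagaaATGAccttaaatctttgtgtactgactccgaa
rpl16-rpl14: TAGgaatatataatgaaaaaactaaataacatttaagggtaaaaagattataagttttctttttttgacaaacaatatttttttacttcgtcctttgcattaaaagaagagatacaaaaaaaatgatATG

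The atpB and atpE reading frames overlap. Same-strand overlaps of this kind occur in 3 pairs of plastid protein-coding genes in the annotation, and atpB-atpE is the only one of the 3 that the table lists, as 1 entry with 1 value. The table holds 5 entries that name 2 loci, and whether the overlap led to the joint entry was not tested. The spacer between rpl16 and rpl14 is 124 bases long, and A and T make up 79.8% of it.

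All 8 organelle entries were higher in the mutant and none was lower, against 55.6% of the 708 entries that were higher, and 6 of the 8 were still higher when the mutant values were rescaled to the median of the nuclear entries. That median was 0.45 on the log2 scale, and it belongs to a list already selected for difference. The genes that code for transcription and translation made up 5 of the 8 entries, the genes of photosynthetic membrane complexes 2, and an open reading frame of unknown function 1. The log2 fold changes in the authors' deposited table ran from 0.42 to 1.12 with a median of 0.57, a ratio of 1.48. Among all 394 entries that were higher, the median was 0.68. Apart from ndhK and orf107a, every organelle entry lay below that value.

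**Figure D1:**
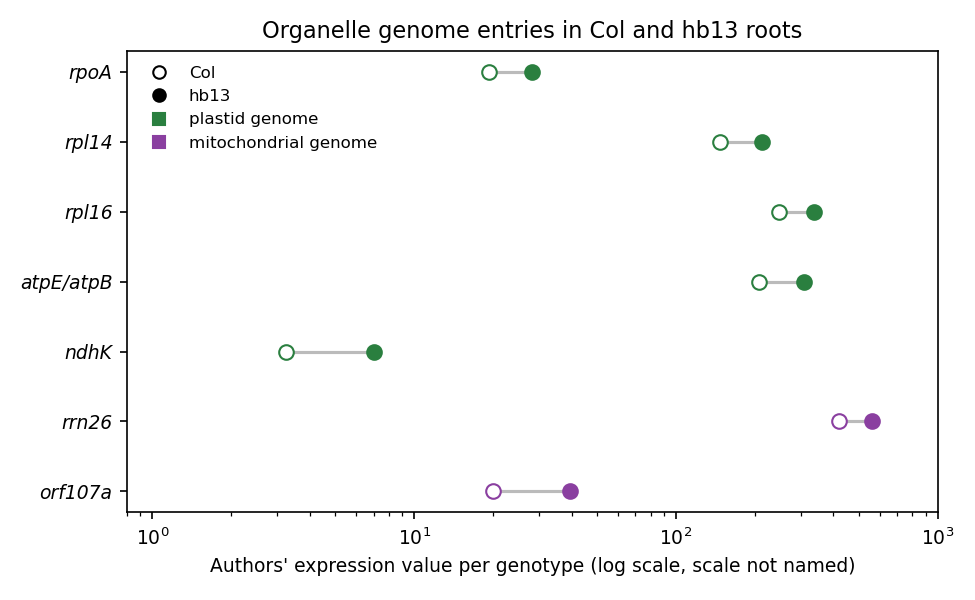
Expression value per genotype in the authors' deposited table for the organelle entries described in the text (horizontal, log scale, unit not named), with open circles for Col and filled circles for hb13. The filled circles shown all lie to the right of the open ones, with the widest gaps at ndhK (3.23 and 6.9998) and orf107a (20.0 and 39.3); rescaling to the nuclear median turns the direction of rpl16 and rrn26.

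The plastid polymerase gene rpoA (ATCG00740) codes for the alpha subunit of the bacterial-type RNA polymerase. In the authors' deposited table its expression value was 19.3 in Col and 28.3 in hb13, so log2(hb13/Col) was 0.55 (q = 0.0113). Of the 4 plastid rpo genes it was the 1 listed. The beta-type subunits rpoB, rpoC1 and rpoC2 lie in a separate transcription unit and were not listed.

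The large ribosomal subunit of the plastid was represented by rpl14 and rpl16. The gene rpl14 (ATCG00780), which codes for a protein of that subunit, had a value of 148 in Col that rose to 213 in hb13 in the authors' deposited table, with log2(hb13/Col) at 0.52 (q = 0.00645). For rpl16 (ATCG00790), also a large subunit gene and one with an intron, the authors' deposited table gave 248 in Col and 337 in hb13, and log2(hb13/Col) was 0.44 (q = 0.0244). This was the smallest plastid change, and it came to -0.0027 after rescaling to the nuclear median.

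Both genes and rpoA belong to 1 cluster of 11 genes that runs over 8.24 kb from rpl23 to rpoA, all on the same strand. The genes rpl16 and rpl14 are neighbours, and their spacer is printed above, while rpoA is the last gene of the cluster. Upstream of rpl16 lie rpl23, rpl2, rps19, rpl22 and rps3, none of which was listed. A gene that is not in the table either had a q-value of 0.05 or more or was not tested, so no statement on its level follows. The values of rpl16, rpl14 and rpoA in the authors' deposited table, 0.44, 0.52 and 0.55 on the log2 scale, lay close together, where the quartiles of the 394 higher entries were 0.53 and 0.95. Neighbouring plastid genes can share transcripts, and whether these values are independent of each other was not tested.

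Among the membrane complex genes, the joint entry of atpE and atpB (ATCG00470 and ATCG00480) had the smallest q-value of the members. The gene atpB codes for the beta subunit and atpE for the epsilon subunit of the chloroplast-type ATP synthase, which makes ATP from a proton gradient. The expression value in the authors' deposited table was 208 in Col and 310 in hb13, with log2(hb13/Col) at 0.58 (q = 0.00246). That q-value is the smallest in the table and was shared by 342 of the 708 entries, and this was the 1 member that had it. Because both genes share 1 value, the change cannot be assigned to either. Of the 6 plastid atp genes, those for the alpha subunit and for the membrane-embedded part (atpA, atpF, atpH and atpI) lie in another transcription unit and were not listed.

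The gene ndhK (ATCG00430) codes for a subunit of the plastid NADH dehydrogenase-like complex, which returns electrons to the plastoquinone pool; its older name is psbG. Its change was the largest of the 8, from 3.23 in Col to 6.9998 in hb13 in the authors' deposited table, with log2(hb13/Col) at 1.12 (q = 0.0220). It also had the lowest values of the members, and with no counts the error of such values is unknown. It was the only member that at least doubled, as 12.4% of all 708 entries and 22.3% of the 394 higher ones did (log2(hb13/Col) of 1 or more). Of the 11 plastid ndh genes it was the 1 listed, and its neighbours ndhJ and ndhC on the same strand were not listed.

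None of the 5 psa, 15 psb or 6 pet gene names, which cover photosystem I, photosystem II and the cytochrome complex, was in the table, and neither was rbcL, the gene of the large Rubisco subunit. The listed plastid genes were compared with the other 71 for features of the annotated gene sequence. Median GC content was 38.4% in the listed 7 and 36.4% in the others. The longest run of A, in the strand that has the sequence of the RNA, was 14 bases in rpoA, 11 in rpl16 and 10 in atpB. The median was 7 in the listed genes and 6 in the others. The ranges overlapped for both features.

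The mitochondrial members were rrn26 and orf107a, which carry consecutive locus numbers. The gene rrn26 (ATMG00020) codes for the large ribosomal RNA of the mitochondrion. In the authors' deposited table it had 422 in Col and 564 in hb13, which gave a log2(hb13/Col) of 0.42 (q = 0.0454), the smallest change and the largest q-value of the 8. After rescaling to the nuclear median it came to -0.025. Only 24 of the 708 entries had a smaller log2 fold change in size. The open reading frame orf107a (ATMG00030), whose product has no known function, rose from 20.0 to 39.3 in the authors' deposited table, with log2(hb13/Col) at 0.97 (q = 0.0279). The 2 mitochondrial changes therefore differed in size, with a ratio of 1.34 for rrn26 and 1.96 for orf107a, and no test of that difference is possible without values per library. The table held no other mitochondrial entry, so none of the 32 mitochondrial protein-coding gene names of TAIR10.1, such as those of the respiratory chain, was listed.

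By q-value the organelle entries lay late in the list. A q-value under 0.01 was met by 2 of the 8 entries, atpE/atpB and rpl14, or 25% of them. Of the 394 higher entries 60.4% had such a q-value, and higher entries with such a q-value made up 33.6% of all 708. The median q-value of the 8 was 0.0232, against 0.00462 over all entries.

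**Figure D2:**
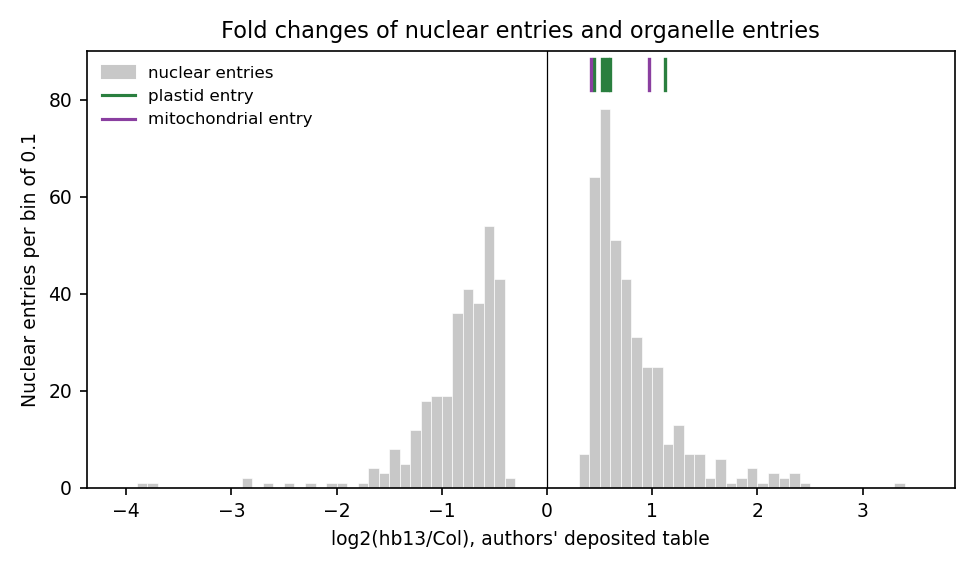
Histogram of log2(hb13/Col) in the authors' deposited table for the nuclear entries with a fold change (bars, entries per bin of 0.1), with a vertical line above it for each organelle entry, green for plastid and purple for mitochondrial. The 8 lines lie between 0.42 and 1.12, to the right of 0 and mostly near the inner edge of the higher entries; rescaling by the nuclear median of 0.45 moves rpl16 and rrn26 to the left of 0.

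Copies of organelle DNA in the nucleus can take reads from organelle transcripts. Every 100-base stretch, the length of a read, of the 8 member loci with a RefSeq gene of the same name was searched for in the whole assembly on both strands. None of the stretches of these 8 genes was found elsewhere as an exact match, from 270 stretches in rpl14 to 3070 in rrn26. Copies with changed bases could be missed by an exact search, and whether such copies took reads was not tested. The locus of orf107a has no gene of that name in the assembly and could not be searched. The mitochondrial sequence of this assembly may differ from that of the build TAIR10 that the submitters' processing notes name, so the result for rrn26 rests on the newer sequence.

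A search of the nuclear entries for exact stretches gave 1 that carries organelle sequence. AT2G07783 is annotated as a transcribed pseudogene on chromosome 2, at chr2:3297892-3299395 on the plus strand of TAIR10.1, and 1353 of its 1405 stretches of 100 bases (96.3%) also occur in the mitochondrial genome. It lies inside a 271 kb region of chromosome 2 in which 92.3% of such stretches occur in the mitochondrial genome. In that region 185 genes are annotated and 1 was listed. Of the stretches of AT2G07783, 996 (70.9%) were found in ccmFN1, a mitochondrial gene for the assembly of cytochrome c, and these cover 94.9% of the stretches of that gene. In the authors' deposited table AT2G07783 had 19.9 in Col and 37.3 in hb13, with log2(hb13/Col) at 0.90 (q = 0.00246). Reads of that length from ccmFN1 and from the pseudogene cannot be told apart over most of their length, so AT2G07783 is an uncertain entry. Its identifier is that of a nuclear gene, and for that reason it is not among the members.

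The nuclear genes that serve the organelle genomes were examined next. From 4 lists with 76 genes, 2 were in the table. For comparison, 2.31% of nuclear genes annotated in the chloroplast and 2.17% of those annotated in the mitochondrion were listed. At such shares, lists of this size hold few listed genes in any case. Both genes from the 4 lists were lower in the mutant, where 44.4% of all entries were lower. Both belong to the list of 20 genes for plastid transcription, which holds sigma factors, phage-type polymerases and proteins attached to the plastid polymerase. SIG6 (AT2G36990), a sigma factor known for early plastid gene expression in seedlings, fell from 2.27 in Col to 1.18 in hb13 in the authors' deposited table, with log2(hb13/Col) at -0.94 (q = 0.0113). SIG5 (AT5G24120), a sigma factor known for responses to light and stress, fell from 9.77 to 6.76 in the authors' deposited table, with log2(hb13/Col) at -0.53 (q = 0.0333). SIG5 and SIG6 were lower in the mutant, while rpoA, the subunit gene of the polymerase that sigma factors serve, was higher. Whether these changes are linked was not tested. Neither sigma factor gene had a q-value under 0.01. The other genes of the list have no value in the table, nor do rpoB, rpoC1 and rpoC2. None of 9 genes for mitochondrial transcription and organelle RNA processing and decay was listed, nor any of 18 genes for alternative respiration and mitochondrial stress. None of 29 nuclear genes for photosynthesis was listed either, among them the light-harvesting and small Rubisco subunit genes that mark green tissue. At the listing shares given above, no listed gene is an ordinary outcome for lists of these sizes. These counts are therefore not a result about the genes. NPQ4, GUN5 and CP12-3, which are tied to photosynthesis but not on the list of 29, were in the table and lower in the mutant. They were picked once the values were known, from 62 listed entries annotated in the chloroplast, of which 26 were higher. Their values follow below. The levels of the 29 genes are not in the table, so whether green tissue differed between the genotypes was not tested.

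Nuclear genes whose annotation places the product in the chloroplast made up 62 entries out of 2688 such genes (2.31%). Of these, 26 were higher and 36 lower, so 41.9% were higher, against 55.6% of the whole table. The median log2 fold change was -0.47 against 0.45. The nuclear entries nearest to no change were at -0.373 and 0.376, with none in between. A median of listed entries therefore takes the sign of the larger group, and its distance from another median does not measure a shift. For products placed in the mitochondrion, 19 of 874 genes (2.17%) were listed. Of these 19 entries 7 were higher and 12 lower, with a median of -0.55. The 2 sets overlap, since GUN5 and FSD1, among others, are in both, so they are not separate observations. None of 65 ribosomal protein genes placed in the chloroplast or 10 placed in the mitochondrion was listed, so the listed ribosomal protein transcripts had no listed nuclear counterpart in this annotation. At listing shares of 2.31% and 2.17%, few listed genes would be looked for in sets of that size. The next 5 genes were picked for their known roles once the values were known. MRL1 (AT4G34830), which stabilises the plastid rbcL transcript, fell from 1.58 in Col to 0.879 in hb13 in the authors' deposited table, with log2(hb13/Col) at -0.85 (q = 0.0154). NPQ4 (AT1G44575), the photosystem II protein that sets off heat dissipation of excess light, fell from 32.1 to 19.2 in the authors' deposited table, with log2(hb13/Col) at -0.75 (q = 0.00246). GUN5 (AT5G13630), a magnesium chelatase subunit of chlorophyll synthesis with a part in plastid-to-nucleus signalling, fell from 15.3 to 10.1 in the authors' deposited table, with log2(hb13/Col) at -0.60 (q = 0.00246). CP12-3 (AT1G76560), of a protein family that regulates enzymes of the Calvin cycle, fell from 68.0 to 48.1 in the authors' deposited table, with log2(hb13/Col) at -0.50 (q = 0.0194). In the other direction FSD1 (AT4G25100), an iron superoxide dismutase, rose from 62.7 to 150 in the authors' deposited table, with log2(hb13/Col) at 1.26 (q = 0.00246). The annotation is broad and includes NRT2.6, a nitrate transporter family member, while it leaves out SIG5 and SIG6, so the counts describe annotation terms rather than proven plastid proteins.

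**Figure D3:**
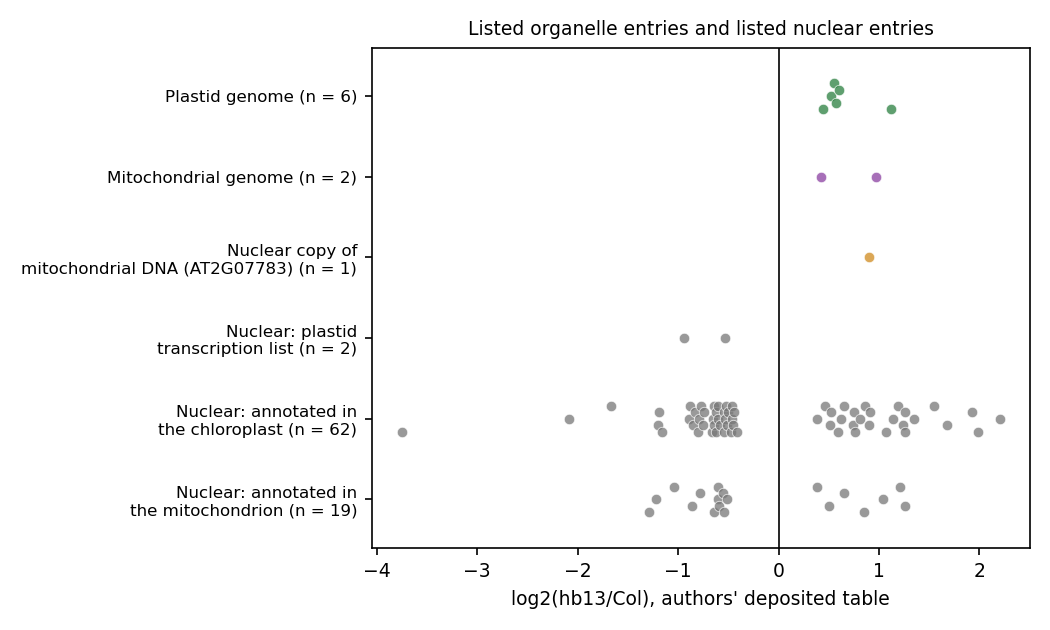
Each point is 1 listed entry at its log2(hb13/Col) in the authors' deposited table (horizontal), in rows for the organelle genomes, the nuclear copy AT2G07783 and 3 sets of nuclear genes, with small vertical offsets for legibility. The 6 plastid and 2 mitochondrial points lie to the right of 0 (rpl16 and rrn26 move to its left after rescaling to the nuclear median), SIG5 and SIG6 lie to the left, and the chloroplast-annotated nuclear entries lie on both sides.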

How the data were processed

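The deposited file is 1 table of the authors' comparison, with no value per library. Its Col and hb13 columns hold a normalized signal that the authors deposited as 1 value per genotype, on a scale that the header does not name. The authors' deposited log2 fold changes matched the log2 ratio of these columns with a largest deviation of 1.02e-05. The authors' deposited q-values lay between 0.00246 and 0.05. Per the submitters' processing notes, TopHat2 2.0.13, Cufflinks 2.1.1, Cuffdiff and the build TAIR10 were used; their settings are not given in the sources used here. Multiple mapping, joint assignment of overlapping genes and scaling between genotypes could each move the values.

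Without values per library, no SD, interval or test was computed, the planned fit across all genes could not be run, and every call is the authors'. Entries were counted by direction. Every member is named except 1 entry that is not reported here, with each listed gene of the 4 nuclear partner lists and each nuclear entry that copies organelle sequence. The members and gene lists were chosen with earlier results of these data known. The lists by annotated location came from the "LOCATED IN" notes of RefSeq TAIR10.1 and were added after the table was seen. Exact stretches of 100 bases were searched in that assembly; the search was tested on simulated sequences with planted copies. Python 3.11.15, NumPy 2.4.6 and matplotlib 3.10.9 were used.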

Additional observations from a re-analysis of the deposited data

How the results depend on the processing

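No paired analysis was possible because 1 value stands for each genotype; leaving out each replicate was not run for the same reason. Of the 8 organelle entries higher in the mutant, 2 had a q-value under 0.01, and 1 was left at a minimum log2 change of 1 in size, both settings that can only remove entries. All 8 had mean values of at least 5, and 7 named 1 locus. Rescaling to the nuclear median left 6 higher and 2 lower, with rpl16 at -0.0027 and rrn26 at -0.025. Since that median comes from entries selected for difference, the shift of 0.45 is not an estimate of a scaling error. A pseudocount of 1 changed no direction, and gave log2 fold changes from 0.42 to 0.94. Of the 2 nuclear partner genes lower in the mutant, 0 were left at a q-value under 0.01, 0 at a minimum log2 change of 1 in size, and 1 at a minimum mean value of 5, a setting chosen after seeing the data. With depth unknown, precision is least certain for the low values of ndhK and SIG6.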
